A study of Mus musculus with 60 samples.

Results

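Pou5f1, Sox2 and Nanog, the transcripts of the 3 core pluripotency factors, were followed by symbol through 2 tables of expression levels and by position through 24 lists of ChIP-seq peaks from mouse embryonic stem (ES) cells. They were 3 of the 24314 gene symbols found in both tables. The genes were picked for their known role and not for a measured value, but with earlier results of these data known. The study compared cells with and without Lnc956, a long noncoding RNA, under etoposide, which blocks topoisomerase II and so breaks both DNA strands. Lnc956 itself was not matched to a row by its symbol and was not analysed here.

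In the first RNA-seq set, wild-type (WT) cells and cells with Lnc956 knocked down made up 4 groups, each line untreated or given 10 uM etoposide for a time that the labels do not give. The same WT values stand in the time-course table under 0 h and 3 h headings, as described there, and no time was taken from those headings. In the time course there were 14 groups. WT was sampled after 6 h and 9 h of etoposide, whereas knockout of Lnc956, knockdown of P53 and the combination of these (both losses) were sampled at 0 h, 3 h, 6 h and 9 h. Most time-course libraries were labelled 1 uM, but 4 were labelled 10 uM, each beside a replicate at 1 uM. ChIP-seq against P53, with an antibody to its phosphorylated form, covered WT and Lnc956 knockdown cells, untreated or given 10 uM etoposide. ChIP-seq against KLF4 covered WT cells, Lnc956 knockout cells, knockout cells rescued with full-length Lnc956 and knockout cells rescued with Lnc956 lacking bases 862 to 1253 (the deletion rescue), each untreated or given 10 uM for 3 h. Each group held 2 libraries, named library 1 and library 2 below. No clone is named, and separate cultures are not stated for the 2 libraries of a group. A p-value therefore reflects the spread of these libraries alone, and that spread may be technical.

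The 3 factors form the centre of the transcription network that keeps ES cells undifferentiated. OCT4, the POU-domain protein encoded by Pou5f1, and the HMG-box protein SOX2 bind side by side on composite DNA elements and activate their own genes and Nanog, while the homeodomain protein NANOG stabilises the undifferentiated state and varies more between cells and conditions than the other two. P53, the tumour suppressor activated by DNA damage, is known from mouse ES cells as a repressor of Nanog. KLF4, a zinc-finger factor, binds at many of the elements that the core factors occupy.

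All 3 genes lie on the forward strand of mm10: Pou5f1 at chr17:35506032-35510777, Sox2 at chr3:34649995-34652461 and Nanog at chr6:122707489-122714633. Sox2 lies inside the long noncoding gene Sox2ot, and Pou5f1 and Nanog have processed pseudogenes. The sources used here do not say how reads shared with these were assigned, so levels of the 3 genes carry that uncertainty. The sequences just upstream of the annotated starts are shown because the KLF4 peaks described below reached them in some groups and not in others. Each is the 250 bases before the outermost start in RefSeq's table for GRCm38.p6, whose chromosomes are those of mm10, on the forward strand, with 7-letter octamer matches (ATGCAAA on either strand), SOX matches (ACAATG) and KLF matches (GGGTGTG or GGGCGTG) in capitals.
Pou5f1, chr17:35505782-35506031: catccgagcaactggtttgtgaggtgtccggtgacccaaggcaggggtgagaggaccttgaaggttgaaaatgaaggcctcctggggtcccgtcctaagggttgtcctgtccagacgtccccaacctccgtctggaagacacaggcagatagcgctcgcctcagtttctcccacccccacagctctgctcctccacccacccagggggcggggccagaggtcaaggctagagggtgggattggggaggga
Sox2, chr3:34649745-34649994: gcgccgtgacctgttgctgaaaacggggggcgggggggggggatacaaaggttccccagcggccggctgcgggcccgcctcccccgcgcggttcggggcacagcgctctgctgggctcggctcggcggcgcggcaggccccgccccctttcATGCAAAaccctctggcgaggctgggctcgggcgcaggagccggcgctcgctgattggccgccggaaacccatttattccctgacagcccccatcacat
Nanog, chr6:122707239-122707488: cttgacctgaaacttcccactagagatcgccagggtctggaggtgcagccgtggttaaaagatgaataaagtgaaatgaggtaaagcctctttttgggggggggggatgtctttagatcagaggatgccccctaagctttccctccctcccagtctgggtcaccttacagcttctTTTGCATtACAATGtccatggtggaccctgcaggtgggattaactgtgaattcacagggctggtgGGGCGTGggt
The Nanog window held an octamer match on the reverse strand at positions -75 to -69 and a SOX match at -67 to -62, 1 base apart, and a KLF match at -10 to -4, counted from the start site. Among all 32851 promoter windows of this length in the table, 4.12% held ATGCAAA, 10.7% held ACAATG and 13.8% held 1 of the KLF words on either strand. The Sox2 window held 1 octamer match, at -99 to -93, and the Pou5f1 window held none of these words. The full octamer ATGCAAAT (in 1.60% of windows), the SOX words CATTGTT and CTTTGTT (8.12%) and the P53 half-site consensus (7.13%) were in none of the 3 windows. The shorter octamer and SOX words were chosen after the sequences were seen. The Sox2 window held 27 CpG dinucleotides, the Pou5f1 window 8 and the Nanog window 3, against a median of 6 over all windows.

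Levels are in FPKM, which corrects fragment numbers for transcript length and library size, and without read counts the depth is unknown. Changes below are on the scale of log2(FPKM + 1), tested with limma across all genes and called at a Benjamini-Hochberg adjusted p under 0.05. The 9 other ES-cell markers checked were present in every library, the lowest value being 6.04 FPKM for Lin28a. Markers of other cell types stood beside them: the summed level of 15 fibroblast genes was 979 to 1053 FPKM in untreated and 415 to 428 FPKM in treated libraries of the first set. In the time course that sum was 229.9 to 307 FPKM in WT libraries, 989 to 1336 FPKM in knockout libraries, 609 to 1386 FPKM in P53 knockdown libraries and 724 to 916 FPKM with both losses. The summed levels of 8 endoderm markers (at most 18.8 FPKM) and 8 mesoderm markers (at most 25.5 FPKM) were low in both sets, those of 8 trophectoderm markers reached 302 FPKM and those of 7 neural markers 136 FPKM. Trp53, which encodes P53, stood at 61.8 to 112 FPKM in P53 knockdown libraries and 52.5 to 66.2 FPKM with both losses, against 176 to 301 FPKM in the other time-course libraries.

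In WT cells of the first set etoposide lowered Nanog and Sox2 and raised Pou5f1. Nanog stood at 176 and 171 FPKM in untreated WT cells and at 52.3 and 48.2 FPKM in treated ones, so the groups lay far apart. That was a log2 change of -1.77 ± 0.05 (SE, 2 libraries against 2, adjusted p = 1.58e-08), larger in size than those of all but 2.98% of the tested genes. Sox2 stood at 197 and 198 FPKM untreated and at 146 and 132 FPKM treated, again without overlap (-0.50 ± 0.06, adjusted p = 4.56e-05). Pou5f1, at 1203 and 1282 FPKM untreated, rose to 1487 and 1422 FPKM (0.23 ± 0.06, adjusted p = 0.00446). All 3 members were called, where 76.9% of the 12733 genes tested were called, so the count itself says little. The 15 fibroblast markers all fell in the same comparison (median log2 change -1.84), and their part in these changes was not tested. In bulk RNA, fewer cells of a type and less RNA per cell cannot be told apart.

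In Lnc956 knockdown cells etoposide lowered Nanog and Sox2, and Pou5f1 was not called. Nanog went from 153 and 154 FPKM to 109.9 and 113 FPKM (-0.46 ± 0.05, adjusted p = 3.82e-05), and Sox2 from 158 and 168 FPKM to 141 and 134 FPKM (-0.24 ± 0.06, adjusted p = 0.0052). Pou5f1 stood at 1253 and 1246 FPKM untreated and 1377 and 1314 FPKM treated, a change that was not called (0.11 ± 0.06, adjusted p = 0.115). Thus 2 of the 3 were called, beside 68.6% of all genes. The same 15 fibroblast markers fell here as well (median log2 change -1.76).

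The difference of the etoposide responses, knockdown minus WT, was tested directly. For Nanog it was 1.31 ± 0.07 on the log2 scale (adjusted p = 2.03e-05), and only 1.34% of tested genes had a difference of larger size. For Sox2 it was 0.26 ± 0.08 (adjusted p = 0.0396), and this call was lost when untreated WT library 1 or 2, untreated knockdown library 1, treated WT library 2 or treated knockdown library 1 was left out (adjusted p from 0.0877 to 0.125, log2 difference from 0.19 to 0.27) and when genes with low values were kept (adjusted p = 0.075). For Pou5f1 it was -0.12 ± 0.08 and not called (adjusted p = 0.264). The 2 called members stood beside 33.1% of genes called in this comparison.

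Set against each other under etoposide, knockdown cells held more Nanog than WT cells, 109.9 and 113 against 52.3 and 48.2 FPKM (1.14 ± 0.05, adjusted p = 1.43e-06). Sox2 (141 and 134 against 146 and 132 FPKM) overlapped between the lines (-0.01 ± 0.06, adjusted p = 0.87; the sign turned to 0.06 without treated WT library 1 and to 0.02 without treated knockdown library 2). Pou5f1 was 1377 and 1314 against 1487 and 1422 FPKM (-0.11 ± 0.06, adjusted p = 0.131). So 1 of 3 was called, beside 45.6% of all genes. The fibroblast sum was nearly equal in these groups, at 428 FPKM in both treated knockdown libraries and 426 and 415 FPKM in the treated WT libraries. Of the 15 fibroblast markers themselves 1 was higher and 3 lower in knockdown cells, beside 22.7% and 22.9% of all genes. Their part in these differences was not tested. Without treatment the lines differed less: Nanog was 153 and 154 FPKM in knockdown cells against 176 and 171 FPKM (-0.18 ± 0.05, adjusted p = 0.0302), Sox2 was 158 and 168 against 197 and 198 FPKM (-0.27 ± 0.06, adjusted p = 0.012), and Pou5f1 overlapped (0.01 ± 0.06, adjusted p = 0.928). There 2 of 3 were called, beside 23.8% of all genes. The Nanog call was lost on leaving out any of the 4 libraries (log2 change -0.20 to -0.16, adjusted p 0.0799 to 0.146), and the Sox2 call on leaving out either WT library or knockdown library 1 (-0.28 to -0.23, adjusted p 0.0595 to 0.0943).

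**Figure D1:**
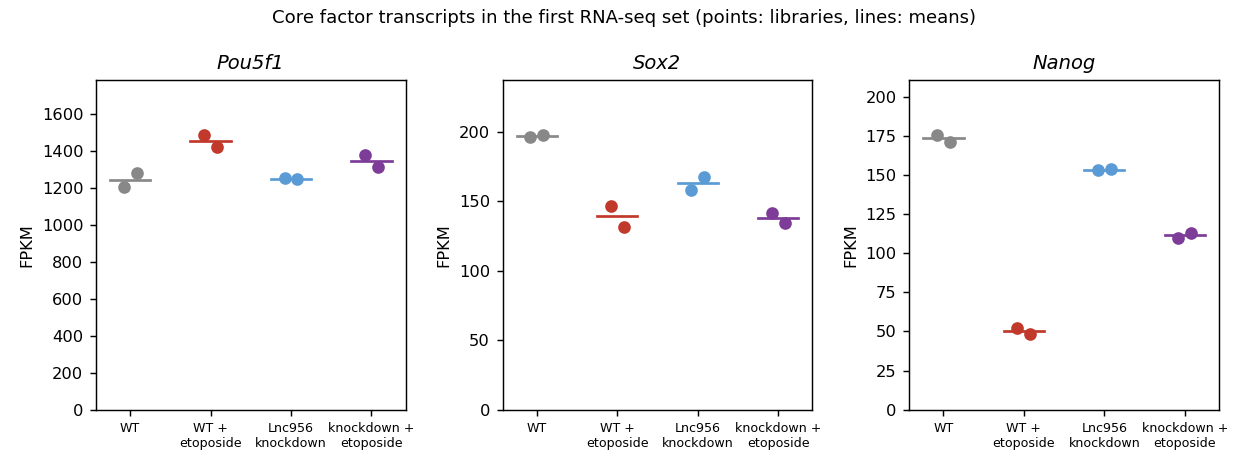
FPKM of Pou5f1, Sox2 and Nanog in each library of the first RNA-seq set (points, 2 a group) with the group mean (line), on linear axes from 0. Treated WT libraries stand lowest for Nanog, at 52.3 and 48.2 FPKM, while treated knockdown libraries stand at 109.9 and 113 FPKM.

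The time course was tested apart from the first set. Labelled WT samples stand at 6 h and 9 h. The table also holds 4 columns headed as WT at 0 h and 3 h that match no labelled time-course sample. For the 3 core genes these columns repeat the values of the untreated and the treated WT libraries of the first set. They were not used, so the change of WT cells from 0 h is not analysed here. Nanog was already low in WT cells at 6 h, at 50.3 and 55.1 FPKM, and stood at 62.4 and 56.7 FPKM at 9 h (0.17 ± 0.10, adjusted p = 0.309). Pou5f1 fell between these times from 1079 and 1228 to 741 and 641 FPKM (-0.74 ± 0.12, adjusted p = 0.000769), and only 3.22% of tested genes changed more. Sox2 was 134 and 119.5 FPKM at 6 h and 169.7 and 148 FPKM at 9 h (0.32 ± 0.13, adjusted p = 0.127). Of the 3 members 1 was called, beside 12.1% of the 14223 genes tested.

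In Lnc956 knockout cells all 3 core transcripts were lower at 9 h than at 0 h. Nanog went from 220.4 and 227 FPKM at 0 h to 161 and 173 at 3 h, 121 and 117 at 6 h and 100.0 and 112 at 9 h, with no overlap between 0 h and any later time. Its log2 change was -0.42 ± 0.10 at 3 h (adjusted p = 0.0915), -0.90 ± 0.10 at 6 h (adjusted p = 7.17e-07) and -1.07 ± 0.10 at 9 h (adjusted p = 3.93e-08). Pou5f1 went from 1421 and 1357 FPKM through 1300.1 and 1286 and 1223 and 1110 to 923 and 979 FPKM, and only the 9 h change was called (-0.55 ± 0.12, adjusted p = 0.000836). Sox2 was 77.7 and 86.5 FPKM at 0 h, 60.0 and 66.9 at 3 h, 91.6 and 85.5 at 6 h and 52.7 and 53.7 at 9 h, and only the 9 h change was called (-0.61 ± 0.13, adjusted p = 0.000464). The members called were 0 of 3 at 3 h (2 at an unadjusted p under 0.05 in limma), 1 at 6 h and 3 at 9 h, beside 0.450%, 50.8% and 63.6% of all genes. Quantile scaling, which gives all libraries one distribution, shifted the median of all genes by up to 0.29 on the log2 scale in the time course and by up to 0.05 in the first set. The median change of all genes at 9 h was 0.27, and under quantile scaling the Pou5f1 change at 6 h was called (-0.20, adjusted p = 0.0147, against -0.25 and 0.0993). At 9 h 2 of the 15 fibroblast markers were higher and 6 lower, and 3 of the 6 trophectoderm markers were higher and 1 lower. Their part in these changes was not tested.

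In P53 knockdown cells Nanog was lower at 3 h and 9 h than at 0 h, and Sox2 and Pou5f1 were lower at 9 h. Nanog stood at 216 and 224 FPKM at 0 h, 149 and 169.6 at 3 h, 184 and 191 at 6 h and 144 and 140.3 at 9 h, so every later library lay below both 0 h libraries and the 6 h libraries lay above those of 3 h. The log2 change was -0.46 ± 0.10 at 3 h (adjusted p = 0.00944), -0.23 ± 0.10 at 6 h (adjusted p = 0.0745) and -0.63 ± 0.10 at 9 h (adjusted p = 3.64e-05). The 3 h call was lost without 0 h library 2 (-0.44, adjusted p = 0.0546) or 3 h library 1 (-0.37, adjusted p = 0.0933). Sox2 was 171 and 127 FPKM at 0 h, 136 and 101 at 3 h, 142 and 138 at 6 h and 81.8 and 82.4 at 9 h, where it was called (-0.83 ± 0.13, adjusted p = 2.49e-05). Library 1 stood above library 2 for Sox2 at both 0 h and 3 h. So it did for the fibroblast sum (917 and 615 FPKM at 0 h, 997 and 609 FPKM at 3 h). The fit did not pair libraries by number, and a pairing of these times alone was not tested. At 3 h Sox2 was not called (-0.33 ± 0.13, adjusted p = 0.177), but it was without 0 h library 2 (-0.54, adjusted p = 0.0313) or 3 h library 1 (-0.55, adjusted p = 0.0296), and at 6 h its change of -0.07 turned to 0.14 without 0 h library 1. Pou5f1 was 802 and 864 FPKM at 0 h, 781 and 802 at 3 h, 712 and 734 at 6 h and 659 and 616 at 9 h, called at 9 h (-0.38 ± 0.12, adjusted p = 0.0124) but not without 0 h library 2 (-0.33, adjusted p = 0.0824) or 9 h library 2 (-0.34, adjusted p = 0.0804). The members called were 1, 0 and 3 at 3 h, 6 h and 9 h (1 of 3 at 6 h at an unadjusted p under 0.05 in limma), beside 5.18%, 47.2% and 60.2% of all genes. Under quantile scaling Pou5f1 and Nanog were both called at 6 h (-0.47, adjusted p = 7.66e-06, and -0.27, adjusted p = 0.00524). Of the 15 fibroblast markers 9 were higher and 0 lower at 6 h and again at 9 h, and of the 6 trophectoderm markers 4 were higher and 1 lower at both times. The part of either list in these changes was not tested.

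With both losses 1 core transcript, Nanog, was lower at 9 h than at 0 h, and no other change from 0 h was called. Pou5f1 lay between 684 and 904 FPKM in all 8 libraries: 874 and 747 at 0 h, 765 and 902 at 3 h, 684 and 904 at 6 h and 798 and 837 at 9 h, with overlap between 0 h and each later time and log2 changes of 0.04, -0.04 and 0.02 (adjusted p = 1, 0.94 and 0.973; the 6 h sign became positive, at 0.01, and the 9 h change -0.21 under quantile scaling). Sox2 was 185 and 170 FPKM at 0 h, 175 and 184 at 3 h, 146 and 161 at 6 h and 128 and 132 at 9 h, where it missed the threshold (-0.44 ± 0.13, adjusted p = 0.0547; -0.55 and adjusted p = 0.0267 under quantile scaling). Nanog was 267 and 263 FPKM at 0 h, 237 and 244 at 3 h, 212 and 253 at 6 h and 164 and 201 at 9 h, and it fell by 9 h (-0.54 ± 0.10, adjusted p = 0.00248). That call was lost without 9 h library 1 (-0.40, adjusted p = 0.0692). The members called were 0, 0 and 1 at the 3 times (0 of 3 at an unadjusted p under 0.05 in limma at 3 h and 6 h), beside 0%, 2.61% and 5.62% of all genes. At 3 h limma called 0 genes, with 454 genes at an unadjusted p under 0.05. None of the 15 fibroblast markers was called at any of the 3 times. Leaving out single libraries turned the signs of the small Pou5f1 changes at all 3 times and of Sox2 at 3 h.

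**Figure D2:**
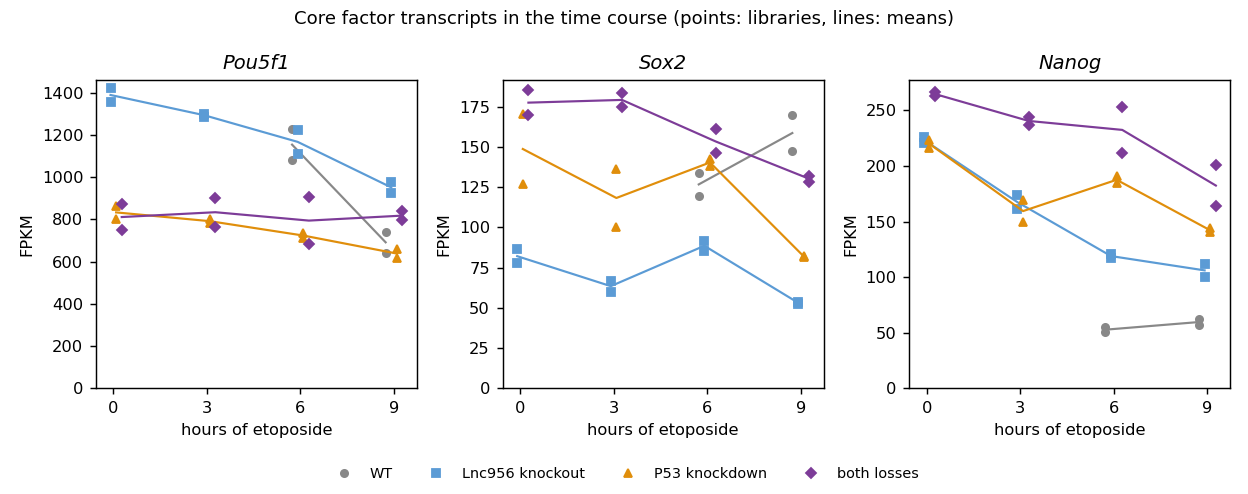
FPKM of Pou5f1, Sox2 and Nanog against hours of etoposide in each time-course library (points) with group means joined by lines, for WT, Lnc956 knockout, P53 knockdown and both losses, on linear axes from 0. WT libraries stand lowest for Nanog at both of their times, knockout libraries stand highest for Pou5f1 at 0 h and 3 h, and Pou5f1 with both losses lies between 684 and 904 FPKM at every time.

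The 0 h to 9 h responses of both losses and of knockout cells shared no library and were compared directly. The difference, both losses minus knockout, was 0.53 ± 0.14 for Nanog (adjusted p = 0.00587), 0.56 ± 0.18 for Pou5f1 (adjusted p = 0.0137) and 0.17 ± 0.19 for Sox2 (adjusted p = 0.47). The median of all genes in this difference was -0.22, and under quantile scaling neither call remained: Nanog came to 0.03 (adjusted p = 0.824), Pou5f1 to 0.23 (adjusted p = 0.0514) and Sox2 turned to -0.12. The Pou5f1 call was also lost without knockout 9 h library 1 (0.52, adjusted p = 0.0501) or 0 h library 2 of both losses (0.45, adjusted p = 0.0765). With the 4 libraries labelled 10 uM left out, neither was called (Pou5f1 0.53, adjusted p = 0.0764; Nanog 0.38, adjusted p = 0.0779). So 2 of 3 were called, beside 47.4% of all genes. In the same difference 5 of the 15 fibroblast markers were higher and 0 lower, and 0 of the 6 trophectoderm markers were higher and 4 lower, and their part was not tested. Against the response of P53 knockdown cells the differences were 0.40 ± 0.18 for Pou5f1 (adjusted p = 0.0854), 0.39 ± 0.19 for Sox2 (adjusted p = 0.111) and 0.08 ± 0.14 for Nanog (adjusted p = 0.69), with 0 of 3 called in limma (2 at an unadjusted p under 0.05) beside 34.2% of all genes. In that comparison quantile scaling gave a Pou5f1 call (0.67, adjusted p = 1.81e-05), and leaving out P53 knockdown 0 h library 2 gave a Sox2 call (0.60, adjusted p = 0.0182).

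Against treated WT cells, both lines held more Nanog and the 3 factors did not move together. At 6 h Nanog stood at 121 and 117 FPKM in knockout and 184 and 191 FPKM in P53 knockdown cells against 50.3 and 55.1 FPKM in WT (1.16 ± 0.10, adjusted p = 1.65e-08, and 1.81 ± 0.10, adjusted p = 1.9e-11). At 9 h the differences were 0.82 ± 0.10 (adjusted p = 2.36e-06) and 1.24 ± 0.10 (adjusted p = 5.02e-09). Sox2 was lower than WT in knockout cells at 6 h (-0.51 ± 0.13, adjusted p = 0.00329) and at 9 h, where 52.7 and 53.7 FPKM stood against 169.7 and 148 FPKM (-1.56 ± 0.13, adjusted p = 1.25e-08), and in P53 knockdown cells at 9 h (-0.94 ± 0.13, adjusted p = 5.95e-06) but not at 6 h (0.15 ± 0.13, adjusted p = 0.36). Pou5f1 was higher than WT in knockout cells at 9 h (0.46 ± 0.12, adjusted p = 0.00536; 0.36 and adjusted p = 0.0777 without WT 9 h library 2) and overlapped at 6 h (0.02 ± 0.12, adjusted p = 0.928; -0.17 and adjusted p = 0.0332 under quantile scaling). In P53 knockdown cells Pou5f1 was lower than WT at 6 h (-0.67 ± 0.12, adjusted p = 0.000147) and was not called at 9 h (-0.11 ± 0.12, adjusted p = 0.466; -0.50 and adjusted p = 2e-06 under quantile scaling). In knockout cells 2 and 3 of 3 members were called at 6 h and 9 h, beside 48.3% and 44.1% of all genes. In P53 knockdown cells 2 of 3 were called at each time, beside 53.2% and 54.5%. The 4 comparisons share the WT libraries, whose fibroblast sum was below that of every other time-course library. Of the 15 fibroblast markers 13 or 14 were higher in each of the 4 comparisons, and of the 6 trophectoderm markers tested 5 and 3 were higher in knockout cells at 6 h and 9 h (median log2 difference 0.94 and 0.32) and 6 and 5 in P53 knockdown cells (1.64 and 0.98), with 0 lower in all 4. The part of either list in the differences was not tested.

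Cells with both losses held more Sox2 and less Pou5f1 than knockout cells, already at 0 h. Sox2 stood at 185 and 170 against 77.7 and 86.5 FPKM at 0 h (1.10 ± 0.13, adjusted p = 9.66e-07), and the difference was 1.49 at 3 h, 0.79 at 6 h and 1.28 at 9 h, each called. Pou5f1 was 874 and 747 against 1421 and 1357 FPKM at 0 h (-0.78 ± 0.12, adjusted p = 3.07e-05), and the difference was -0.64 at 3 h and -0.57 at 6 h, both called, and -0.22 at 9 h, not called (adjusted p = 0.151; -0.25 and adjusted p = 0.00268 under quantile scaling). The 6 h Pou5f1 call was lost with only the compared groups in the limma fit (adjusted p = 0.112). Nanog differed by 0.24 ± 0.10 at 0 h, which missed the threshold (adjusted p = 0.0503; 0.56 and adjusted p = 4.47e-06 under quantile scaling), then by 0.52, 0.96 and 0.77 at 3 h, 6 h and 9 h, each called. In limma the 0 h Nanog difference was also called with a pseudocount of 0.1 (adjusted p = 0.0496). It was called as well with only the compared groups in the fit (adjusted p = 0.0161) and with a replicate block (adjusted p = 0.0348). The members called were 2, 3, 3 and 2 at the 4 times, beside 55.4%, 54.3%, 47.5% and 53% of all genes. Of the 6 trophectoderm markers tested 5, 6, 6 and 5 were higher with both losses at the 4 times and 0 lower (median log2 difference 2.06, 2.23, 1.42 and 0.94). Of the 15 fibroblast markers 1, 0, 6 and 3 were higher and 8, 8, 2 and 5 lower. The part of either list in these differences was not tested.

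Against P53 knockdown cells, cells with both losses held more Nanog at all 4 times. Nanog was higher by 0.27, 0.59, 0.30 and 0.35 at the 4 times (adjusted p = 0.0401, 0.000112, 0.0261 and 0.00855) and Sox2 by 0.61 at 3 h and 0.66 at 9 h (adjusted p = 0.00088 and 0.000455), with 0.27 at 0 h and 0.13 at 6 h not called. Pou5f1 was called at 9 h only (0.36 ± 0.12, adjusted p = 0.0238). The members called were 1, 2, 1 and 3, beside 44.9%, 47.6%, 37.2% and 47.9% of all genes. Of the 15 fibroblast markers 2, 1, 0 and 0 were higher and 2, 4, 11 and 12 lower at the 4 times. Of the 6 trophectoderm markers 4, 5, 1 and 1 were higher and 0, 0, 0 and 2 lower (median log2 difference 0.90, 1.16, 0.46 and 0.30). The part of either list in these differences was not tested.

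Several of these calls against P53 knockdown cells rested on single libraries. At 0 h the Nanog call was lost without any 1 of the 4 libraries (0.24 to 0.29, adjusted p 0.074 to 0.148), and Sox2 was called without P53 knockdown library 1 (0.48, adjusted p = 0.0122). At 6 h the Nanog call was lost without either P53 knockdown library (0.28 and 0.33, adjusted p = 0.122 and 0.0729) or without library 2 of both losses (0.18, adjusted p = 0.273). At 9 h the Pou5f1 call was lost without any 1 of the 4 libraries (0.31 to 0.41, adjusted p 0.051 to 0.129), and the Nanog call without P53 knockdown library 2 (0.33, adjusted p = 0.0518) or without library 2 of both losses (0.20, adjusted p = 0.172), which is labelled 10 uM. The small Pou5f1 differences at 0 h, 3 h and 6 h changed sign when single libraries were left out, and that at 3 h also under quantile scaling (-0.21, adjusted p = 0.0109). Quantile scaling gave Pou5f1 calls at 0 h (-0.26, adjusted p = 0.00289) and 6 h (0.22, adjusted p = 0.0102) and ended the Nanog call at 0 h (0.18, adjusted p = 0.0529).

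**Figure D3:**
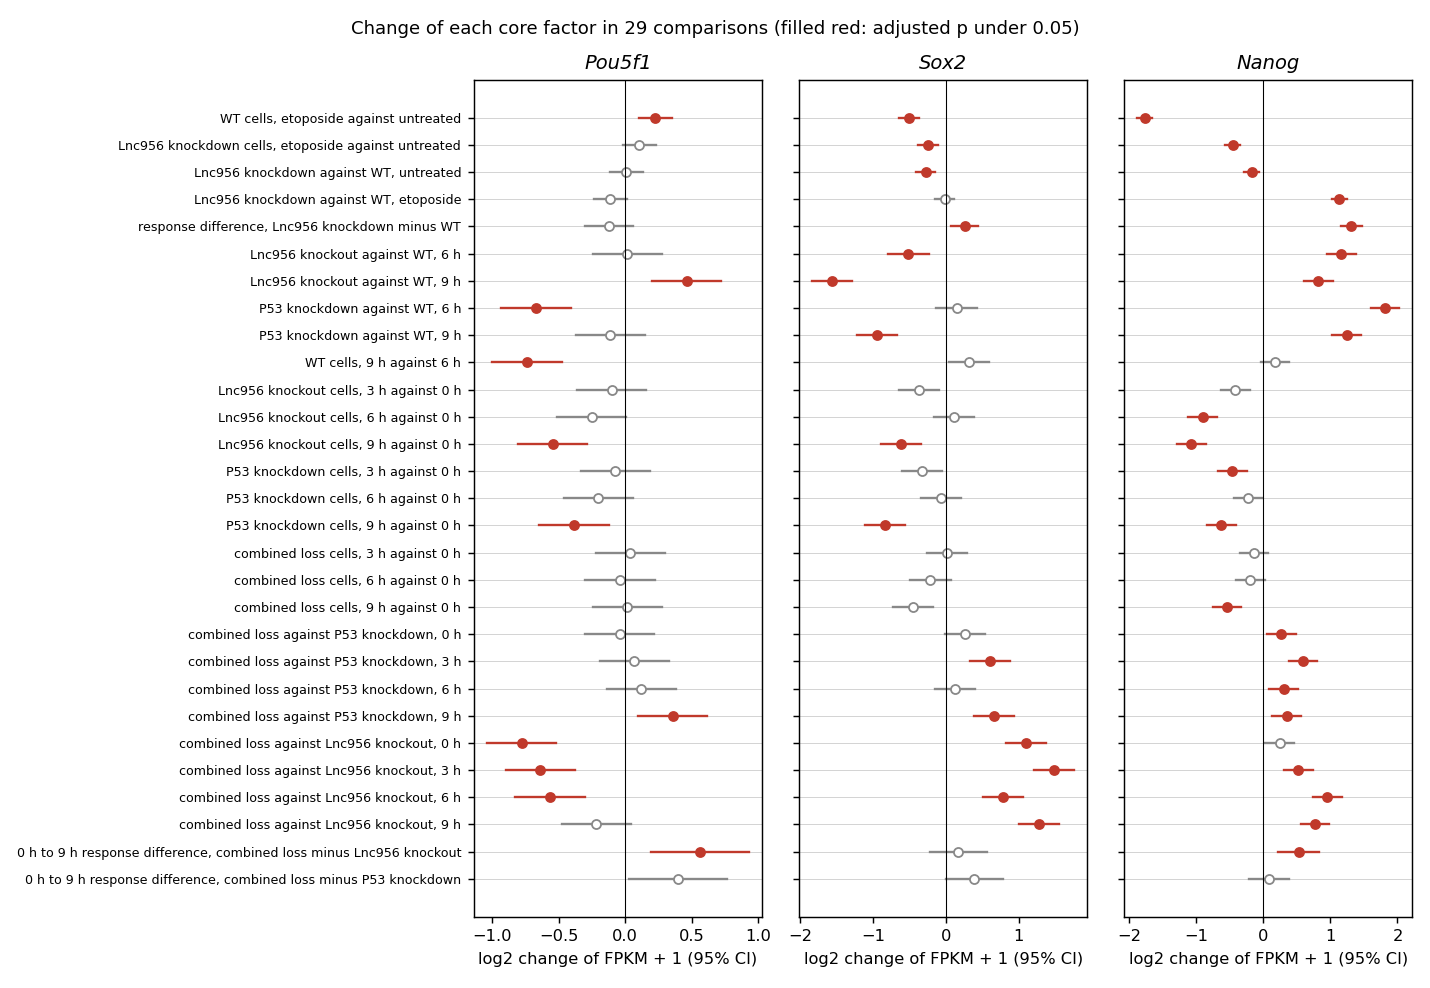
Log2 change of FPKM + 1 with its 95% confidence interval (limma, not adjusted) for each core factor in the 29 comparisons, filled red where the adjusted p is under 0.05 (combined loss is both losses). Nanog spans -1.77 in treated WT cells of the first set to 1.81 in P53 knockdown against WT at 6 h, Sox2 spans -1.56 to 1.49, and Pou5f1 stays between -0.78 and 0.56.

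Over the 14 time-course groups the means of Pou5f1 spanned 638 to 1389 FPKM (2.18-fold), those of Sox2 53.2 to 179 FPKM (3.37-fold) and those of Nanog 52.7 to 265 FPKM (5.03-fold). The order of groups differed between the genes. For Pou5f1 the highest groups were knockout cells at 0 h, 3 h and 6 h, and the lowest was P53 knockdown at 9 h. For Sox2 the highest were both losses at 3 h and 0 h, and the lowest were knockout cells at 9 h and 3 h. For Nanog the highest were both losses at 0 h, 3 h and 6 h, and the lowest were WT cells at 6 h and 9 h. Between neighbours in the order the libraries overlapped in 8 of 13 pairs for Pou5f1, 8 of 13 for Sox2 and 6 of 13 for Nanog, so only parts of each order stand out from the spread. Across the 14 group means, which share lines and libraries, Pearson's r was -0.51 between Pou5f1 and Sox2, -0.08 between Pou5f1 and Nanog and 0.20 between Sox2 and Nanog. The genes most like Pou5f1 were Lig1 (r = 0.95), Ddx39b, Hsp90ab1, Sept1 and Commd10 (r = 0.91), where 5% of all genes had r above 0.60 with Pou5f1. Those most like Sox2 were Rnf125 (r = 0.92), Aass, Gm3435, Dsg2 and Nfe2l2 (r = 0.90), where 5% of all genes had r above 0.62 with Sox2. Group means of Aass were only 0.12 to 1.84 FPKM, near the filter of 1 FPKM, and those of Rnf125 were 2.03 to 7.18 FPKM. Those most like Nanog were Myadm (r = 0.98), Slc2a3 (r = 0.97), Klf13, Il6st and Nrp2 (r = 0.96), where 5% of all genes had r above 0.78 with Nanog. Slc2a3, which encodes a glucose transporter, is a neighbour of Nanog on chromosome 6.

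Among factors that work with the core trio, more fell than rose in treated WT cells. Of 15 partner factors 3 rose and 8 fell in treated WT cells of the first set (median log2 change -0.31), where 39.3% of all genes rose, 37.6% fell and the median was 0.01. Esrrb, a nuclear receptor of naive ES cells, changed by -1.27, Prdm14, a repressor of differentiation genes, by -1.45, Klf2, a KLF4 relative, by -1.36, and Nr0b1, a receptor-like corepressor, by 1.18. Under etoposide 6 of the 15 rose and 6 fell in knockdown cells (median 0.06), beside 31.5% and 37.1% of all genes. In treated knockdown against treated WT cells 11 of the 15 were higher and 0 lower (median 0.40), where 22.7% of all genes were higher and 22.9% lower. Esrrb differed by 1.11, Nr0b1 by 1.08, Sall4, a zinc-finger partner of OCT4, by 0.69, and Stat3, the transducer of LIF signals, by 0.50. Time-course knockout against WT cells gave 4 higher and 3 lower at 6 h (median -0.004), beside 21.8% and 26.4% of all genes. At 9 h 1 was higher and 10 lower (median -0.90), beside 23.4% and 20.6%. P53 knockdown against WT cells gave 3 higher and 7 lower at 6 h (median -0.11), beside 28.9% and 24.3%. At 9 h 3 were higher and 10 lower (median -0.95), beside 29.7% and 24.8%. From 0 h to 9 h 10 of the 15 fell and 4 rose in knockout cells (median -1.12, all genes 0.27, with 20.4% of all genes lower and 43.2% higher), with Esrrb at -2.53 and Nr5a2, a receptor that binds the Pou5f1 gene, at -2.10. With both losses 7 fell and 0 rose (median -0.89, all genes 0.06, with 3.20% of all genes lower and 2.43% higher), and Esrrb changed by -1.15 and Klf5 by -1.11.

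Of 12 known targets of the core factors, 8 fell and 3 rose in treated WT cells (median -0.47), against 37.6% and 39.3% of all genes. Zfp42, a naive marker, changed by -0.79, Fbxo15 by -0.99 and Fgf4, a growth factor switched on by OCT4 and SOX2 together, by -0.83, whereas Gdf3, a neighbour of Nanog, changed by 1.84. In treated knockdown against treated WT cells 7 of the 12 were higher and 1 lower (median 0.32), beside 22.7% and 22.9% of all genes. Zfp42 differed by 1.08, Lin28a, an RNA-binding regulator, by 1.07, and Lefty1, a Nodal antagonist, by -2.34. Time-course knockout against WT cells gave 8 higher and 3 lower at 6 h (median 0.71), beside 21.8% and 26.4%. At 9 h 5 were higher and 3 lower (median 0.13), beside 23.4% and 20.6%. From 0 h to 9 h 9 fell and 1 rose in knockout cells (median -0.71), with Lin28a at -2.87, where 20.4% of all genes fell and 43.2% rose. With both losses 3 fell and 0 rose (median -0.32), where 3.20% of all genes fell and 2.43% rose. Of the 3 tested repressors of core genes, Tcf7l1 and Nr6a1 fell in treated WT cells (-0.80 and -0.88). These 2 falls and 0 rises stood beside 37.6% and 39.3% of all genes. In treated knockdown against treated WT cells 1 of the 3, Tcf7l1, was higher (1.35) and 1 was lower (median 0.15). The shares of all genes there were 22.7% and 22.9%. Among POU and SOX relatives, which share the DNA-binding domains but mark other lineages, 6 of 12 tested rose and 3 fell in treated WT cells (median 0.15), against 39.3% and 37.6% of all genes, with Pou4f1 at 1.33, Sox21 at 0.92 and Sox1 at 0.90. Of the genes around the 3 loci, 4 of 8 tested rose and 2 fell in treated WT cells (median 0.21), against the same shares of all genes. Slc2a3 changed by -1.81 there, and its response in knockdown cells differed from that in WT cells by 1.59 (adjusted p = 0.0005). Dppa3, another neighbour of Nanog, changed by -0.66.

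Peaks were compared as presence in both libraries of a group, a site being a place where peaks of the 2 libraries overlap by 1 bp or more. The fold enrichment of a peak is the authors' value within its own list, so folds of different libraries stand side by side here without a test. Within 10 kb of the gene bodies, untreated WT cells held 7 KLF4 sites at Pou5f1, 2 at Sox2 and 1 at Nanog. Under etoposide WT cells kept 2 at Pou5f1, 0 at Sox2 and the 1 at Nanog, so 3 of 10 were kept, beside 21.4% of all 22566 untreated KLF4 sites. Knockout cells held 4, 2 and 4 sites untreated and kept 3, 2 and 2, beside 69.9% of all. Cells rescued with full-length Lnc956 held 5, 2 and 2 and kept 3, 0 and 1, beside 43.5%. Cells with the deletion rescue held 7, 2 and 3 and kept 4, 1 and 3, beside 65.3%. Klf4 transcripts stood at 18.5 and 18.4 FPKM in untreated and 33.4 and 27.7 FPKM in treated WT cells of the first set (log2 change 0.69, adjusted p = 5.78e-05). Single lists differed within some groups: treated full-length rescue held 4 shared sites but 7 peaks in each library, and untreated knockout 10 shared sites but 17 peaks in library 1.

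**Figure D4:**
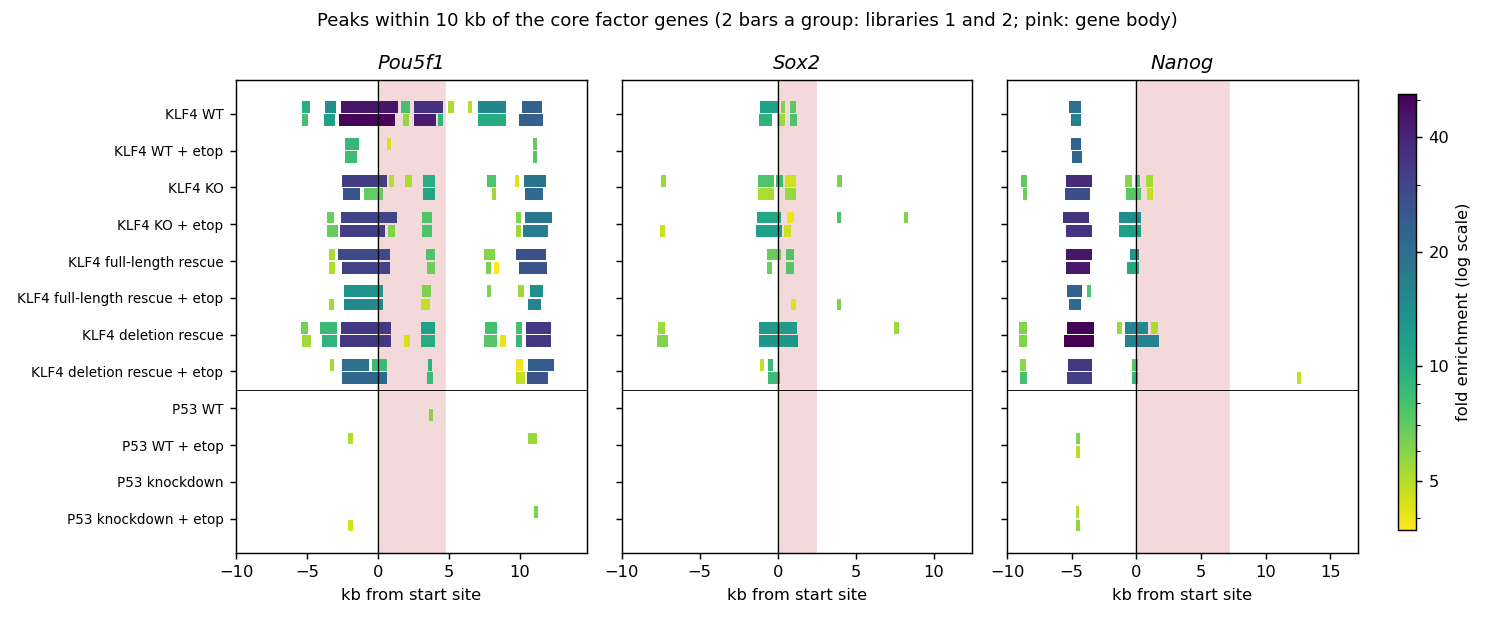
Peaks within 10 kb of Pou5f1, Sox2 and Nanog by distance from the start site (kb), 1 row a ChIP group with 2 bars for libraries 1 and 2, coloured by fold enrichment on a log scale, with the gene body in pink. In treated WT cells both libraries keep KLF4 peaks 4.7 kb upstream of Nanog and, at Pou5f1, 2.1 kb upstream and 11.1 kb after the start, none is listed at Sox2, and P53 peaks appear 4.6 kb upstream of Nanog in the 4 treated libraries.

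The element 4.7 kb upstream of Nanog, a region known as a Nanog enhancer, carried a KLF4 peak in all 16 libraries. In WT cells its fold was 19.9 and 16.5 untreated and 22.6 and 22.0 treated, and 11.7% and 16.7% of the peaks in the untreated lists had a higher fold, against 3.62% and 5.08% in the much shorter treated lists. The site spanned chr6:122702298-122703211 untreated and chr6:122702404-122703253 treated. In knockout cells the fold was 37.5 and 27.7 untreated and 34.7 and 35.1 treated. In full-length rescue cells it was 44.7 and 43.8 untreated and 22.7 and 21.6 treated, and in deletion rescue cells 50.5 and 52.1 untreated and 34.4 and 31.9 treated.

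At the Nanog start site, where the printed window holds its KLF, octamer and SOX words, KLF4 peaks were listed in some lines and not in others. No KLF4 peak reached the 250 bases in any WT library or in treated full-length rescue cells, whereas 10 of 16 libraries had one: both libraries of knockout cells (fold 7.89 and 7.36 untreated, 14.4 and 11.7 treated), of untreated full-length rescue cells (13.4 and 10.4) and of deletion rescue cells (15.0 and 16.2 untreated, 7.41 and 8.81 treated). Untreated WT libraries held 30590 and 27294 KLF4 peaks in all and untreated knockout libraries 32541 and 22963, while treated WT libraries held 6943 and 5691, the shortest KLF4 lists.

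At Pou5f1 3 KLF4 elements had a peak summit in 14 or more of the 16 libraries. At 2.1 kb upstream, in a region known as its distal enhancer, the KLF4 fold in WT cells was 44.8 and 50.5 untreated and 8.86 and 8.38 treated. In knockout cells it was 32.5 and 25.8 untreated and 30.6 and 32.5 treated. Full-length rescue cells stood at 28.8 and 31.1 untreated and 13.3 and 15.0 treated, and deletion rescue cells at 34.0 and 34.1 untreated and 19.7 and 21.8 treated. Inside the gene, 3.6 kb after the start, WT cells had an untreated peak (35.5 and 42.7) and none under etoposide, while every other group, treated or not, had one between 4.73 and 11.6. A KLF4 peak reached the printed Pou5f1 window in 14 of 16 libraries, the exceptions being both treated WT libraries. At 11.1 kb after the start, inside Cchcr1 and next to Tcf19, all 16 libraries had a peak, with folds of 22.7 and 23.6 in untreated and 6.99 and 7.63 in treated WT cells.

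At Sox2 KLF4 peaks lay on both sides of the start site. Just upstream of the start the fold was 11.4 and 9.43 in untreated WT cells, with no peak in either treated WT library or either treated full-length rescue library. Knockout cells had a peak in this region in both states (10.7 and 11.6 treated), and so had deletion rescue cells (12.3 and 12.9 untreated, 8.65 and 8.58 treated). A KLF4 peak reached the printed Sox2 window in 9 of 16 libraries. A second WT site lay 1.00 kb after the start, in the gene body (7.32 and 7.79), and was likewise absent from both treated WT lists.

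**Figure D5:**
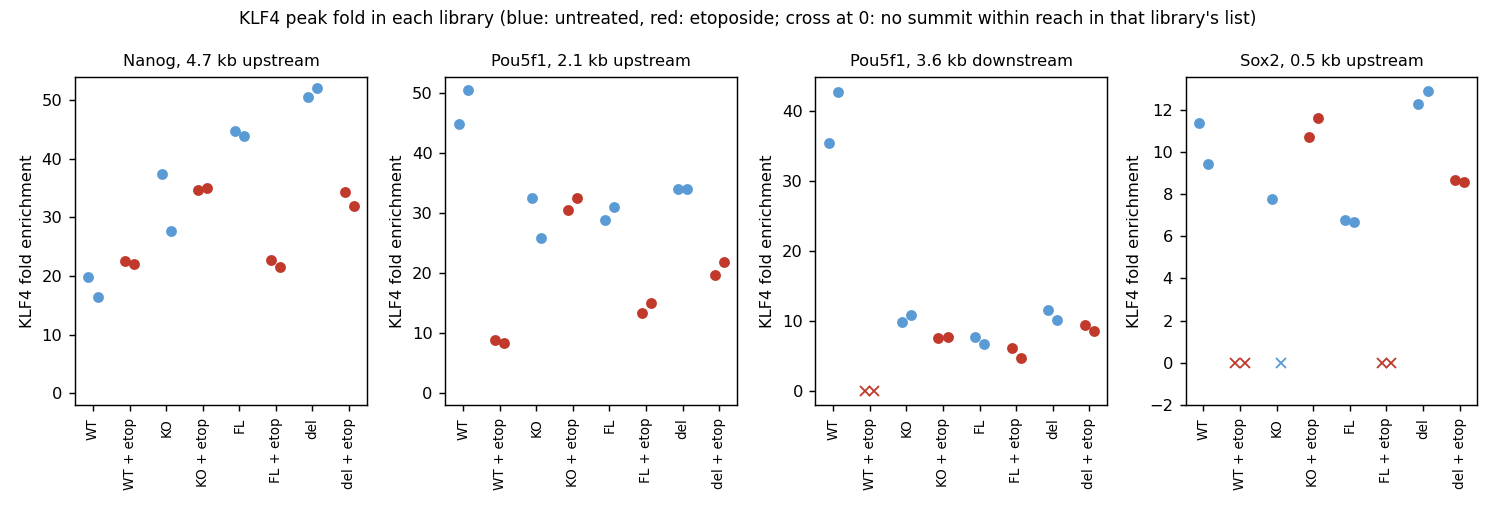
Fold enrichment of the KLF4 peak at 4 elements in each of 16 libraries (blue untreated, red etoposide; FL, full-length rescue; del, deletion rescue; a cross at 0 marks a library with no peak summit there). Treated WT libraries fall to 8.86 and 8.38 upstream of Pou5f1 and have no peak at the other Pou5f1 element or at Sox2, but stand at 22.6 and 22.0 upstream of Nanog.

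Farther out the lines differed as well. Within 150 kb of the start sites untreated WT cells held 19 KLF4 sites around Pou5f1, 3 around Sox2 and 10 around Nanog, and treated WT cells 2, 0 and 6. Knockout cells held 7, 5 and 23 untreated and 11, 9 and 16 treated, full-length rescue cells 11, 7 and 14 and then 4, 1 and 8, and deletion rescue cells 13, 12 and 23 and then 7, 5 and 16. Around Sox2 the 2 sites of highest fold lay at the gene in WT cells, but 107 to 111 kb downstream, in the region known as the Sox2 control region, in untreated knockout cells (12.6 and 11.1 for the stronger site), untreated full-length rescue cells (13.5 and 13.7) and untreated deletion rescue cells (13.8 and 17.2). Around Nanog 1 of the 2 sites of highest fold in every KLF4 group lay 104 kb downstream, between Slc2a3 and Foxj2 and about 8.9 kb from each, with folds of 18.1 and 16.5 in untreated and 17.0 and 15.9 in treated WT cells.

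Within 10 kb of the 3 genes, Nanog alone had a P53 peak in both libraries of a group. There treated WT cells held 1 P53 site, chr6:122702792-122703127, inside the KLF4 site 4.7 kb upstream of Nanog, with folds of 6.21 and 4.93. Treated knockdown cells held the same place, at chr6:122702791-122703127, with folds of 5.10 and 5.72. The peaks were of moderate rank, with 39.2% and 81.9% of the peaks in the WT lists and 82.6% and 51.9% in the knockdown lists having a higher fold. No untreated P53 library had a peak within 10 kb of Nanog, and no P53 library in any state had one within 10 kb of Sox2 or over any of the 3 printed promoter windows. So 1 of 3 members had a P53 site in treated WT and in treated knockdown cells, beside 18.6% and 16.2% of 21887 protein-coding genes, and 0 of 3 in untreated cells, beside 1.85% and 1.32%. At a -log10 q of 5 or more in both libraries, neither treated group kept the Nanog site, since WT library 2 stood at 4.10 and knockdown library 1 at 4.58.

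At Pou5f1 P53 peaks appeared in single libraries. A peak on the element 2 kb upstream was listed in treated WT library 1 (5.05) and treated knockdown library 2 (4.44), and a peak near 11.1 kb after the start in library 1 of each treated group (5.57 and 6.26). The untreated WT library 2 had a peak 3.79 kb after the start (6.08) that no other P53 library had. Each P53 peak near Nanog and each treated P53 peak near Pou5f1 overlapped a KLF4 peak in all 16 KLF4 libraries, and the untreated one at Pou5f1 in 14. Of all treated WT P53 sites 58.3% overlapped an untreated WT KLF4 site. Within 150 kb, treated WT cells and treated knockdown cells each held 6 P53 sites around Nanog, 1 around Pou5f1 and 0 around Sox2. The Nanog site of highest fold, 104 kb downstream at chr6:122811022-122811472 in WT cells, overlapped the KLF4 site there (6.31 and 6.70 in WT and 6.80 and 5.32 in knockdown cells), while the only Pou5f1 site lay at -79.9 kb, inside H2-Q6 (5.11 and 4.997 in WT cells).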

How the data were processed

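RNA-seq covered 36 libraries and ChIP-seq 24, with 2 libraries a group. The authors deposited FPKM per gene, and the submitters' processing notes name CASAVA 2.19, TopHat2 2.0.8, Cufflinks 2.1.1, Cuffdiff 2.1.1, Bowtie2 2.1.0, MACS2 2.2.7.1 and mm10, without roles. The deposited peak lists give a fold enrichment (a ratio), −log10 p and q values and a score per peak, called per library. The sources used here do not state the scaling between libraries, the annotation or the peak cutoff. The tables hold no read counts, so the depth is unknown and no counting interval can be given.

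Groups came from the labels. Columns of the cells with both losses were matched to their samples by elimination, and 4 columns headed as WT at 0 h and 3 h that matched no labelled time-course sample were not used. The first table held 24883 lines, in which 280 symbols stood on more than 1 line. Identical lines were merged, and 140 symbols whose lines differed were left out. That left 24206 symbols in use, and the time-course table held 24314. Genes at 1 FPKM or more in at least 2 libraries were tested (12733 and 14223). log2(FPKM + 1) was fitted with limma 3.58.1 (trended prior) in R 4.3.3, all groups of a table together and each table apart, since no source states that they share a scaling; p-values were adjusted by Benjamini-Hochberg over all tested genes. The fit was tested on simulated data with 200 changed genes, and the joining of peaks at the 3 genes on a few made-up intervals. The genome-wide joins were not tested in this way. Peaks were joined with bedtools 2.31.1 in Python 3.11.15 with pandas 2.3.3; a site needed an overlap of 1 bp or more and lay within 10 kb of a gene, and 150 kb around the start sites was also scanned. Promoter windows were read from RefSeq's table.

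Alternatives were another pseudocount, no filter, quantile scaling, fewer groups in the fit, a replicate block, left-out libraries, a stricter q and a larger overlap. The members and gene lists were chosen with earlier results of these data known, and the shorter motifs after the sequences were seen. Genes named beside the members were, by rule, the 5 of highest Pearson r over time-course group means and, in each list, up to 4 of smallest p in the comparison described.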

Additional observations from a re-analysis of the deposited data

Results flagged for a closer look

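In the first RNA-seq set the etoposide response of Nanog differed between Lnc956 knockdown and WT cells by 1.31 on the log2 scale, and that of Sox2 by 0.26, each by a direct test of the difference in limma. Nanog was lower under etoposide in both lines, in 2 of 2 libraries each. The Sox2 call was lost when some single libraries were left out. In the time course the 0 h to 9 h response differed between cells with both losses and Lnc956 knockout cells by 0.56 for Pou5f1 and by 0.53 for Nanog, again by a direct test. Both of these calls were lost under quantile scaling (Pou5f1 0.23, Nanog 0.03). They were also lost without the 4 libraries labelled 10 uM (Pou5f1 0.53, Nanog 0.38). Every group held 2 libraries, so single libraries were not tested as outliers.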

How the results depend on the processing

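The log2 changes and call counts of the 3 genes in the 29 expression comparisons were recomputed with another pseudocount, no filter on low values, quantile scaling, only the compared groups in the fit, a replicate block, each library left out and, in the 13 comparisons that hold them, the 4 libraries labelled 10 uM left out; site counts were recomputed with a stricter q, a larger overlap and single lists. Gene lists, likeness and promoter results were not recomputed. The cause of each change below was not tested. The number of core factors called was within 1.5 times its reported value in all 29 comparisons with another pseudocount and with the replicate block. For the other settings, comparisons within that bound are not listed here. With no filter 1 was called in the difference of responses, knockdown minus WT. Quantile scaling gave 2 for knockout and for P53 knockdown cells at 6 h against 0 h, 2 for both losses at 9 h against 0 h, 2 for both losses against P53 knockdown at 6 h, 0 for the response difference of both losses and knockout, and 1 for that of both losses and P53 knockdown. With only the compared groups the numbers were 2 for WT at 9 h against 6 h, 1 for knockout at 3 h, and 0 for P53 knockdown at 3 h, both losses at 9 h, and both losses against P53 knockdown at 0 h and 6 h. Without the 10 uM libraries they were 0 and 1 for both losses against P53 knockdown at 6 h and 9 h, and 0 for the response difference of both losses and knockout. At a -log10 q of 5 or more, 0 P53 sites were left in each treated group.

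Leaving out single libraries gave 0 to 1 core factors called for untreated knockdown against WT, 1 to 2 for the knockdown response difference and for that of both losses and knockout, 0 to 1 for both losses against P53 knockdown at 0 h and 6 h and 1 to 2 at 9 h, 0 to 1 for the response difference of both losses and P53 knockdown, and 0 to 1 for both losses at 9 h. Single peak lists gave 7 sites for treated full-length rescue, 11 to 17 for untreated knockout, 1 to 3 for treated WT P53, 2 for treated knockdown P53 and 0 to 1 for untreated WT P53.

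Signs turned only for changes that were not called as reported. Under quantile scaling Pou5f1 came to -0.17 for knockout against WT at 6 h, 0.014 and -0.21 for both losses at 6 h and 9 h, and -0.21 for both losses against P53 knockdown at 3 h, and Sox2 to -0.0071 for both losses at 3 h and -0.12 for the response difference of both losses and knockout. Without the 10 uM libraries Pou5f1 came to -0.053 for knockout against WT at 6 h and -0.019 for both losses at 9 h, and Nanog to -0.063 for the response difference of both losses and P53 knockdown. With single libraries left out Pou5f1 ranged from -0.037 to 0.055 for untreated knockdown against WT, -0.075 to 0.11 for knockout against WT at 6 h, -0.15 to 0.071, -0.048 to 0.19 and -0.080 to 0.32 for both losses against P53 knockdown at 0 h, 3 h and 6 h, and -0.078 to 0.16, -0.24 to 0.16 and -0.097 to 0.13 for both losses at 3 h, 6 h and 9 h. Sox2 ranged from -0.089 to 0.062 for treated knockdown against WT, -0.28 to 0.14 for P53 knockdown at 6 h and -0.047 to 0.076 for both losses at 3 h, and Nanog from -0.063 to 0.23 for the response difference of both losses and P53 knockdown.

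The replicate block changed 1 call, Nanog in both losses against knockout at 0 h (0.24, adjusted p = 0.0348). The replicate numbers were not taken to pair the libraries: deviations of same-numbered libraries correlated from -0.16 to 0.09 over 6 group pairs of the first set, and from -0.55 to 0.51 over 91 of the time course, 18 of them above 0.1. Depth is unknown for FPKM tables, so no counting error stands behind the low values.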
